A study of Rattus norvegicus with 12 samples.

Results

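The response that pinosylvin and resveratrol had in common was described in L6 myotubes from 6 of the 12 arrays of the series. The members were the 3 arrays labelled pinosylvin and the 3 labelled resveratrol, chosen by their treatment label and taken as 1 class, the stilbenes. They were set against the 3 control arrays, with the 3 arrays of GR24 beside them. L6 myoblasts, from rat skeletal muscle, fuse in culture into myotubes with many nuclei, and the labels give 6 days of differentiation before treatment while the study's methods give 7. Pinosylvin, resveratrol and GR24 were each given at 60 µM in DMSO for 24 h, and the control myotubes received DMSO alone for 24 h. Each group of 3 arrays comes from 3 experiments with this cell line, so a p-value measures the spread between experiments and not between animals.

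Stilbenes are plant defence compounds in which a short carbon bridge joins a pair of phenyl rings. Resveratrol carries an additional hydroxyl group on the ring that is bare in pinosylvin, and the molecules are otherwise alike. GR24 is a synthetic analog of the strigolactones, a family of plant hormones, and is not a stilbene. Many plant phenols and electrophiles act on cells through Nrf2, a transcription factor that Keap1 holds back and that switches on genes for glutathione use, quinone reduction and NADPH supply. Myotube nuclei have left the cell cycle, and cultures of myotubes also hold mononucleated cells that can still divide.

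The labelled cell type was checked against its markers. Of 16 myotube markers 13 were on the arrays under their name, and all 13 were well above background on all 12 arrays. The myosin light chain *Myl11* had a log2 signal of 9.05, 9.32 and 9.14 on the control arrays. The summed signal of the 13 markers, each divided by its array's 75th percentile, was 1690, 1920 and 1680 on the control arrays. It was 1860, 1990 and 1880 with pinosylvin, 1510, 1610 and 1490 with resveratrol, and 877, 886 and 841 with GR24. The pinosylvin sums overlapped with those of the control, but each lay above the control sum of the same replicate number. The resveratrol sums lay below all control sums, and the GR24 sums lay far below. Of markers of other cell types, those of adipocytes (*Adipoq*, *Fabp4* and *Lep*) and epithelium (*Epcam* and *Krt18*) had no control array well above background. *Pecam1* of endothelium, *Ptprc* and *Cd3e* of blood, *Rbfox3* of nerve and *Cnn1* of smooth muscle were also not well above background there. In contrast *Cdh5*, *Cd68*, *Tubb3* and the smooth muscle markers *Smtn*, *Acta2* and *Myh11* were, and *Kdr* of endothelium was on 1 control array. With treatment *Pecam1* was well above background on 3 of the stilbene arrays and 2 of the GR24 arrays, and *Fabp4* on 1 stilbene array and 1 GR24 array. The summed signal of the smooth muscle markers was 43.8, 48.5 and 45.9 on the control arrays, 44.8, 47.3 and 48.3 with pinosylvin, 38.5, 42.3 and 41.4 with resveratrol and 9.23, 9.9 and 9.19 with GR24. Myotubes express some of these too. All 3 fibroblast markers on the arrays, *Pdgfra*, *Dcn* and *Lum*, were above background on all 12, with a summed signal of 1.49, 1.27 and 1.34 on the control arrays, 1.78, 1.57 and 1.6 with pinosylvin, 1.22, 1.29 and 1.23 with resveratrol and 1.17, 1.17 and 1.02 with GR24. The log2 signal of *Dcn* was -0.071, -0.39 and -0.24 on the control arrays. The sum of the blood markers, of which only *Cd68* was above background, was 0.0969, 0.126 and 0.146 on the control arrays, 0.135, 0.138 and 0.177 with pinosylvin, 0.119, 0.124 and 0.147 with resveratrol and 0.675, 0.733 and 0.661 with GR24. The part of any such cells in the results was not tested.

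The question was which genes move alike with both stilbenes, and whether GR24 moves them too. Signals are given on the log2 scale after subtraction of the array's 75th percentile, so they rank arrays for 1 probe and not probes against each other. Changes are differences of group means on that scale, called at an adjusted p under 0.05 over 24279 probes. With the stilbenes as 1 class, 2149 probes were higher than in the control (8.85% of those tested) and 2145 were lower (8.83%). The class mean can hide compounds that part ways, so the shared response was counted as probes past the threshold in the same direction with each stilbene on its own. By that count, 840 probes were higher with both (3.46%) and 1091 were lower with both (4.49%). The comparisons share the 3 control arrays, so the numbers are given without a test of their overlap. Pinosylvin alone had 2010 increases (8.28%) and 2009 decreases (8.27%), and resveratrol 1941 (7.99%) and 2182 (8.99%). With the replicate number as a block, pinosylvin had 3954 increases and resveratrol 3419 increases and 3350 decreases, and with the slide as a block pinosylvin had 3043 decreases. Without a filter on dim probes the increases were 1026 and 1070. The increases with pinosylvin were 1250 without its replicate 1 and 1236 without its replicate 2, and those with resveratrol 1192 without its replicate 1 and 1285 without its replicate 2. The shared increases were 41.8% of the increases with pinosylvin and 43.3% of those with resveratrol, and the shared decreases were 54.3% and 50% of the decreases. Opposite directions were called in 143 probes (0.589%), or in 326 with the replicate number as a block and 49 without a filter on dim probes. Leaving out control replicate 1 gave 73 such probes, control replicate 2 77, control replicate 3 94, pinosylvin replicate 1 91, pinosylvin replicate 2 94 and resveratrol replicate 3 88. In a bulk culture fewer cells of a kind and less RNA per cell cannot be told apart.

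The decreases were the larger changes. The shared increases had a median log2 fold change of 0.46 with pinosylvin and 0.49 with resveratrol, and 46 of them exceeded 2-fold with both compounds. The shared decreases had medians of -0.74 and -0.61, and 102 exceeded 2-fold with both. Over all tested probes the median was 0.054 with pinosylvin, 0.010 with resveratrol and 0.027 with GR24. One slide held replicates 1 and 2 of all groups and the other slide replicate 3, and same-numbered arrays deviated together. With the replicate number as a block, the class had 3803 increases and 3142 decreases, and both compounds shared 1727 and 1674. With the slide as a block the shared counts were 1762 and 1682, and on slide 1 alone, which was added once the values were known, 773 and 1045. A single array per group on slide 2 allowed no test there. Without control replicate 1 the class increases dropped to 1384 and the shared increases to 559, and without pinosylvin replicate 1 the shared increases were 550.

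GR24 was called in the same direction in most of these shared probes. All the contrasts share the 3 control arrays, so the spread of the controls alone raises such agreement, and no value for agreement without a change was computed. GR24 raised 7658 probes of all tested (31.5%) and lowered 6196 (25.5%), so a large share of any set moves with it. Of the 840 shared increases 544 (64.8%) were also higher with GR24, 144 (17.1%) were lower, and 152 (18.1%) did not pass the threshold. Of the 1091 shared decreases 892 (81.8%) were also lower with GR24, 58 (5.32%) were higher, and 141 (12.9%) did not pass. The median with GR24 was 0.52 for the shared increases and -1.10 for the shared decreases. The direct contrast of GR24 with the mean of the stilbenes called 7137 probes higher (29.4%) and 6256 lower (25.8%) over all tested. Among the shared increases that GR24 also raised, GR24 was further from the control in 327 and nearer to it in 25, with no call in 192. Among the shared decreases that it also lowered, the numbers were 627, 37 and 228. With the replicate number as a block, GR24 moved 2468 of the shared probes the same way and 473 the opposite way, against 1436 and 202 without it. The opposite count dropped to 117 without control replicate 1, 116 without control replicate 2, 131 without pinosylvin replicate 1 and 133 without pinosylvin replicate 2.

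The largest shared increase was in *Gsta1*, an alpha-class glutathione S-transferase that joins glutathione to electrophiles. Its log2 signal was 0.78, 0.83 and 0.73 on the control arrays, 3.69, 3.47 and 3.55 with pinosylvin, 4.27, 4.06 and 4.06 with resveratrol and 5.43, 5.45 and 5.19 with GR24. The groups did not overlap and stood in the order control, pinosylvin, resveratrol, GR24. The stilbene mean was 8.41-fold the control, or 3.07 as a log2 fold change (adjusted p = 3e-08, SE 0.082). Slide 1 alone gave 3.07 and slide 2 3.08. Some alpha-class transferases are alike in sequence, so part of this signal may belong to other family members, and the same holds for *Gsta5*. *Gsta5* had a class value of 1.29 (SE 0.16), with 0.68 for pinosylvin, 1.91 for resveratrol and 3.92 for GR24. The pi-class enzyme *Gstp1* changed by 1.66 (SE 0.069, adjusted p = 4.78e-07), and GR24 changed it by 2.36. *Ggt1*, the cell-surface enzyme that opens glutathione for reuse of its parts, changed by 1.92 (SE 0.084). *Ggt1* was the reverse of *Gsta1* between the stilbenes, with 2.10 for pinosylvin against 1.74 for resveratrol.

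Oxidoreductases of aldehydes and ketones formed another part of the top increases. *Aox1*, an aldehyde oxidase, had a log2 signal of -1.93, -1.96 and -1.97 on the control arrays, -0.16, -0.17 and -0.55 with pinosylvin, -0.20, -0.18 and -0.20 with resveratrol and -0.78, -0.54 and -0.88 with GR24. All treated arrays lay above the control arrays, and the GR24 arrays lay below all stilbene arrays but pinosylvin replicate 3. The class change of *Aox1* was 1.71 (SE 0.099, adjusted p = 2.54e-06), and the GR24 change was 1.22. The aldo-keto reductase *Akr1c15*, also of a family with close copies, had 1.42 with the class and 0.76 with GR24. *Dhrs3*, which reduces retinaldehyde to retinol, had 1.25 with the class and 0.94 with GR24. Its class value joined 0.78 with pinosylvin and 1.72 with resveratrol, and its GR24 arrays lay above all pinosylvin arrays and below all resveratrol arrays. GR24 minus the stilbene mean was -0.49 for *Aox1*, -0.66 for *Akr1c15* and -0.31 for *Dhrs3*, all past the threshold (adjusted p = 0.00246, 5.16e-06 and 0.00905).

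Others of the 12 largest increases had varied roles. *Osgin1*, an oxidative stress gene, changed by 1.53. *Slc11a1*, a metal ion transporter of phagosomes, changed by 1.52. *Ccl2*, the chemokine that draws monocytes, changed by 1.42, and *Lgals2*, a galectin that binds galactosides, by 1.39. GR24 raised these 4 genes too, by 1.75, 2.81, 1.87 and 1.92.

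**Figure D1:**
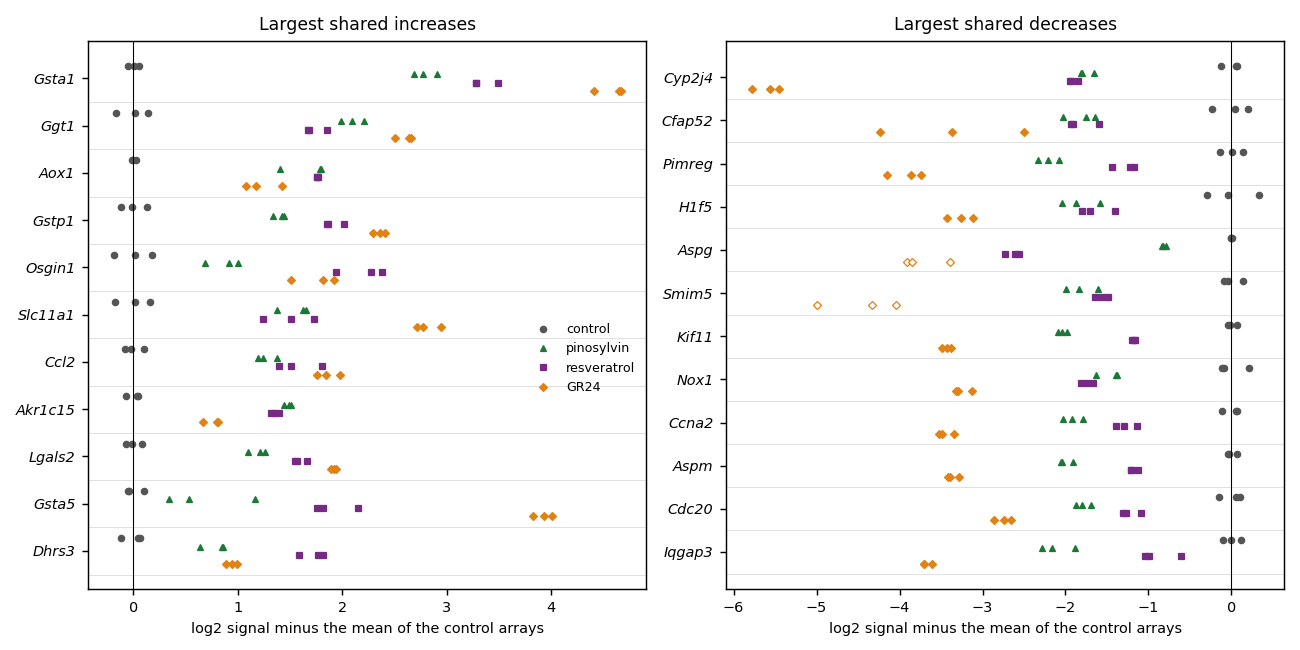
Log2 signal of every array minus the mean of the 3 control arrays (x axis) for genes among the 12 largest shared increases (left) and the 12 largest shared decreases (right), 1 point per array, coloured by group. Open symbols mark a group with no array well above background. The stilbene points of each gene lie on the same side of all its control points.

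Among named genes well above background on all control and stilbene arrays, the largest shared decrease was in *Cyp2j4*, a cytochrome P450. Its log2 signal was 1.55, 1.53 and 1.35 on the control arrays, -0.33, -0.18 and -0.32 with pinosylvin, -0.46, -0.48 and -0.37 with resveratrol and -4.09, -3.98 and -4.31 with GR24. Both stilbene groups lay below the control, and the GR24 arrays lay far below them. The class change was -1.83 (SE 0.082, adjusted p = 6.67e-07), a 3.56-fold decrease, with -1.90 on slide 1 and -1.69 on slide 2. The GR24 change was -5.60. *Nox1*, the catalytic subunit of an NADPH oxidase that makes superoxide, had -1.60 with the class and -3.25 with GR24. *Cfap52*, a protein of motile cilia, had -1.81 with the class (SE 0.30) and -3.37 with GR24.

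*Aspg*, an asparaginase, fell by different amounts. Its log2 signal was -2.07, -2.08 and -2.07 on the control arrays, -2.90, -2.92 and -2.87 with pinosylvin and -4.80, -4.63 and -4.69 with resveratrol. None of the 3 groups overlapped. On the GR24 arrays *Aspg* was not well above background, and it was at least 7.15-fold lower there than in the control. Such a bound sets the mean of the brighter group against a mean in which the dim probe's signal, on each array, is raised to the lowest signal marked well above background if it lies under it. *Smim5*, a small membrane protein, had a class change of -1.69 and was at least 16-fold lower with GR24. The remaining 7 of the 12 decreases were *Pimreg*, *Kif11*, *Ccna2*, *Aspm*, *Cdc20* and *Iqgap3*, which act in cell division, and the linker histone *H1f5* (-1.73). All 7 were lower with GR24 than with the stilbenes. *Pimreg* had -3.92 with GR24 against -1.74 with the class, and *Iqgap3* -3.67 against -1.50.

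Genes of mitosis fell as a group. Of 40 listed 34 were tested, all 34 fell with the class, 33 fell with both stilbenes and all 34 fell with GR24. The exception was *Kif2c*, a kinesin that takes microtubules apart, with -1.57 for pinosylvin and -0.76 for resveratrol (adjusted p = 0.0708, or 0.0439 with the replicate number as a block). The median log2 fold change was -1.34 with the class, -1.61 with pinosylvin, -0.94 with resveratrol and -2.74 with GR24. In all 34 genes pinosylvin was lower than resveratrol by the direct contrast, where 9.31% of all probes were lower and 10.6% higher. The difference of *Kif2c* missed the threshold without pinosylvin replicate 2 (adjusted p = 0.0672) or 3 (0.0897) and without resveratrol replicate 1 (0.0541), 2 (0.0694) or 3 (0.0716). The class median was -1.32 on slide 1 and -1.34 on slide 2.

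*Kif11*, the motor that pushes spindle poles apart, had a log2 signal of 2.87, 2.79 and 2.76 on the control arrays, 0.72, 0.77 and 0.82 with pinosylvin, 1.61, 1.65 and 1.64 with resveratrol and -0.62, -0.56 and -0.68 with GR24. The 4 groups were far apart relative to the spread within each. The class change was -1.61 (SE 0.052, adjusted p = 8.63e-08), and pinosylvin minus resveratrol was -0.86 (SE 0.060, adjusted p = 1.36e-06). *Ccna2* (cyclin A) and *Ccnb1* (cyclin B), which drive entry into mitosis, had class changes of -1.60 and -1.38. *Cdc20* and *Ube2c*, which work in the destruction of mitotic cyclins, had -1.51 and -1.47. The mitotic kinase *Plk1* had -1.48, the kinetochore proteins *Ndc80* and *Nuf2* had -1.46 and -1.43, and *Aspm* of the spindle pole had -1.59. The smallest decrease of the list was that of *Cdc25b*, a phosphatase that activates cyclin-dependent kinases, with -0.76.

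Genes of DNA replication fell too, but less, and without the order seen in mitosis. Of 38 listed 35 were tested, all 35 fell with the class, 28 fell with both stilbenes and 33 fell with GR24. The median was -0.71 with the class (-0.74 on slide 1 and -0.67 on slide 2), -0.72 with pinosylvin, -0.75 with resveratrol and -1.11 with GR24. Between the stilbenes 11 genes were lower with pinosylvin and 6 lower with resveratrol. The 6 were the helicase subunits *Mcm2*, *Mcm3*, *Mcm6* and *Mcm7* and the licensing factors *Cdc6* and *Cdt1*. *Cdc6* missed the threshold without pinosylvin replicate 1 (adjusted p = 0.0502) or 2 (0.0519) or resveratrol replicate 3 (0.0621). *Mcm6*, by contrast, had -0.44 with pinosylvin and -1.20 with resveratrol. *Rrm2* of ribonucleotide reductase, which supplies nucleotides, went the other way with -1.39 and -0.87. *Prim1*, the primase that starts new strands, was the shared decrease that GR24 raised. Its log2 signal was 3.12, 2.95 and 2.99 on the control arrays, 2.47, 2.41 and 2.50 with pinosylvin, 2.42, 2.52 and 2.48 with resveratrol and 3.19, 3.26 and 3.16 with GR24. The stilbene arrays lay below all control arrays and the GR24 arrays above them, with a class change of -0.55 and a GR24 change of 0.18 (adjusted p = 0.0336). That GR24 call was lost without control replicate 2 (adjusted p = 0.112) or 3 (0.0838) or GR24 replicate 1 (0.0673) or 2 (0.11).

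The bases before the start of these genes were searched because the members moved together. RefSeq promoters of the rat assembly GRCr8 were at hand for 28 of the 33 shared mitosis genes, and the 250 bases upstream of the start were read on both strands. The letters CCAAT, the box bound by NF-Y, were present in 22 (78.6%), and TTTGAA, the core of the CHR element of cell cycle genes, in 13 (46.4%). Over all 27457 promoters of the table the shares were 34.3% and 16%, and over 8835 promoters of tested genes 36% and 10.8%. For 23 of the 28 shared replication genes the counts were 14 (60.9%) for CCAAT and 3 (13%) for TTTGAA. The promoters of *Kif11*, *Cdc20*, *Plk1* and *Ndc80* are shown because these genes were among the mitosis genes that fell most, with CCAAT and TTTGAA, or their complements, in capitals. They lie at chr1:244536617-244536866 on the plus strand, chr5:137255800-137256049 on the minus strand, chr1:186147408-186147657 on the plus strand and chr9:118887530-118887779 on the minus strand, and that of *Ndc80* held neither motif. A match is a description of the letters and not of a bound site.
Kif11: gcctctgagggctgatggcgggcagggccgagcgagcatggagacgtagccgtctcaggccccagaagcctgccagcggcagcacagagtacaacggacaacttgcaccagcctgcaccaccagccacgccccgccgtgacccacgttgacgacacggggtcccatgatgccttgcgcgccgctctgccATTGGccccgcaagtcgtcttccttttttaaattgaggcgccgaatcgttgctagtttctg
Cdc20: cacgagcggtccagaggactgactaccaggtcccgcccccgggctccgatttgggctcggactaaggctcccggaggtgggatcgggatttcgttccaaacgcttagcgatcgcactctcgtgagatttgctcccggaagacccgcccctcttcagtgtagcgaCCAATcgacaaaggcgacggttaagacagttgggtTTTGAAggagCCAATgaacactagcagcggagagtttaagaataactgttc
Plk1: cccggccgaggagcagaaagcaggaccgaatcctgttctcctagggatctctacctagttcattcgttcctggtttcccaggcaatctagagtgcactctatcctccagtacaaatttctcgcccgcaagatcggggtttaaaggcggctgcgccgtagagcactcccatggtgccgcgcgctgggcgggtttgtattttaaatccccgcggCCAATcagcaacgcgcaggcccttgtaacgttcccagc
Ndc80: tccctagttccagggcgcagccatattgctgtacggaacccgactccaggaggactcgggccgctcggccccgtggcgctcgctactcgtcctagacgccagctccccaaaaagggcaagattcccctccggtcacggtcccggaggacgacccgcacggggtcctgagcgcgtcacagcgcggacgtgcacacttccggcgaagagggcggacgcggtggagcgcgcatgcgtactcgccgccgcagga

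Nrf2 target genes were the group that rose most. Of 39 tested (of 40 listed) 28 rose with the class and none was called lower, 20 rose with both stilbenes, and with GR24 35 rose and 3 fell. All 20 shared increases were also increases with GR24. The median log2 fold change was 0.48 with the class (0.52 on slide 1 and 0.52 on slide 2), 0.32 with pinosylvin, 0.75 with resveratrol and 1.38 with GR24. By the direct contrast 28 genes were lower with pinosylvin than with resveratrol and none was higher. With the replicate number as a block *Aldh3a1*, an aldehyde dehydrogenase, fell with both stilbenes (-0.26 and -0.21) and 1 gene was higher with pinosylvin. *Aldh3a1* was also called lower with the class with the slide as a block, normexp, quantile normalization, trend and robust settings, either other percentile and in the authors' series table (adjusted p from 0.0123 to 0.0452). *Nfe2l2*, the gene of Nrf2 itself, had 0.12 with the class (adjusted p = 0.484), while *Keap1* rose by 0.48 (adjusted p = 0.00025).

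*Nqo1*, the quinone reductase, showed the widest difference between the stilbenes in this list. Its log2 signal was 3.35 as a mean of the control arrays, 3.80, 3.67 and 3.70 with pinosylvin, 5.37, 5.50 and 5.40 with resveratrol and 6.33, 6.44 and 6.28 with GR24. All pinosylvin arrays were above the control arrays by a small step, and the resveratrol arrays were above them by a large one. The log2 fold change was 0.38 (SE 0.069) with pinosylvin and 2.08 (SE 0.069) with resveratrol, and pinosylvin minus resveratrol was -1.70 (SE 0.069, adjusted p = 3.09e-08), with -1.70 on slide 1 and -1.70 on slide 2. *Srxn1*, sulfiredoxin, followed the same order with 0.44 and 1.93, as did *Osgin1* with 0.87 and 2.20. Heme oxygenase *Hmox1* had 0.86 with pinosylvin, 1.54 with resveratrol and 4.08 with GR24. Catalase (*Cat*) had 0.51, 1.15 and 2.28, and the cystine carrier *Slc7a11* had 0.45, 1.26 and 1.02.

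Of the list 31 genes rose with resveratrol and 20 with pinosylvin, and all 20 rose with both. *Gclc*, the catalytic subunit of glutathione synthesis, had -0.14 with pinosylvin and 0.85 with resveratrol, a difference of -0.99 (adjusted p = 6.4e-06). The thioredoxin gene *Txn1* had 0.049 and 0.61, and the peroxiredoxin *Prdx1* 0.047 and 0.74, with differences of -0.56 and -0.69 that also passed. Others had no called difference. *Gstt2*, a theta-class transferase, rose by 0.83 and 1.00, with a 95% interval of the difference of -0.35 to 0.0052, and the ferritin heavy chain *Fth1* by 0.38 and 0.36, with an interval of -0.11 to 0.15. The letters TGACNNNGC of the antioxidant response element were in 2 (15.4%) of 13 promoters of the shared Nrf2 targets, in 48 (15.6%) of 308 promoters of all shared increases, in 14% of those of shared decreases, in 12.3% of those of tested genes and in 10.2% of all promoters. Those of *Gstp1*, at chr1:210769706-210769955 on the minus strand, and *Me1*, at chr8:96540245-96540494 on the minus strand, held it and are shown with the match in capitals. *Me1* makes NADPH from malate and rose by 0.47.
Gstp1: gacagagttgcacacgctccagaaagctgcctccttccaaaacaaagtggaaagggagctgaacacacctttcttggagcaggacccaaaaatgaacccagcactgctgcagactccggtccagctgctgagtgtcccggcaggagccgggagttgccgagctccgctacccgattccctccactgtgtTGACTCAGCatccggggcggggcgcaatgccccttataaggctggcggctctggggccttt
Me1: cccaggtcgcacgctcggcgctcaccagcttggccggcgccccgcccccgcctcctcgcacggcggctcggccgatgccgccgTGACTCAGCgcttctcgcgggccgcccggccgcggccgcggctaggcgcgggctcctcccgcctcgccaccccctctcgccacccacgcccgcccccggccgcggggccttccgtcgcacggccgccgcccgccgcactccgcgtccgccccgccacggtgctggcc

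Genes of cholesterol synthesis fell, with a wide gap between the stilbenes. All 25 listed genes were tested, 21 fell with the class, 9 fell with both stilbenes and none rose. GR24 lowered 17 and raised 2, and with the replicate number as a block it raised 4. The median was -1.25 with pinosylvin, -0.25 with resveratrol and -0.63 with GR24, and the class median was -0.73 on slide 1 and -0.63 on slide 2. In 22 of the 25 pinosylvin was lower than resveratrol. *Hmgcs1*, which makes HMG-CoA, had a log2 signal of 6.77, 6.85 and 6.46 on the control arrays, 4.87, 5.18 and 4.90 with pinosylvin, 6.08, 6.24 and 5.89 with resveratrol and 4.48, 4.59 and 4.16 with GR24. No groups overlapped, with resveratrol nearest to the control and GR24 lowest. Its change was -1.71 (SE 0.15) with pinosylvin and -0.62 (SE 0.15) with resveratrol.

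Other shared decreases of the pathway followed it. *Idi1*, which isomerises isopentenyl units, had -1.63 and -0.49, the squalene epoxidase *Sqle* -1.25 and -0.48, and *Dhcr7*, of the last step to cholesterol, -1.90 and -0.51. *Tm7sf2*, a sterol reductase, had -2.08 with pinosylvin and -0.14 with resveratrol, the latter not past the threshold, a difference of -1.94 (adjusted p = 3.8e-06). The letters TCACNCCAC of the sterol regulatory element were in none of 17 promoters of the list and in 0.976% of all promoters, and CCAAT was in 14 (82.4%).

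Among 15 tested genes of fatty acid synthesis 2 rose and 4 fell with the class, and 1 rose and 2 fell with both. The increases with the class were 1 without any control array, GR24 replicate 1 or 2, pinosylvin replicate 2, or resveratrol replicate 1 or 3. The shared decreases were the elongase *Elovl6* (-1.47 and -1.02) and the desaturase *Scd* (-1.11 and -0.33), and the shared increase was *Me1*. The median was -0.16 with the class (-0.19 on slide 1 and -0.14 on slide 2), -0.099 without control replicate 1, and -0.065 with GR24.

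Genes under ATF4, the transcription factor of amino acid and ER stress, rose in part. Of 32 tested 14 rose and 1 fell with the class, 8 rose and 1 fell with both stilbenes, and GR24 raised 17 and lowered 6. The class increases were 8 without control replicate 1 and 7 without control replicate 3. The median was 0.21 with the class (0.20 on slide 1 and 0.27 on slide 2) and 0.36 with GR24. *Atf5*, a related factor, had a log2 signal of 3.83, 3.82 and 3.65 on the control arrays, 4.96, 4.86 and 4.77 with pinosylvin, 4.92, 4.75 and 4.65 with resveratrol and 3.79, 3.75 and 3.80 with GR24. The stilbene arrays overlapped with each other and lay above all control and GR24 arrays, which overlapped. The class change was 1.05 (SE 0.075, adjusted p = 8.17e-06), the GR24 value 0.016 (95% interval -0.18 to 0.21), and the difference between the stilbenes 0.088 (95% interval -0.10 to 0.28). The asparagine synthetase *Asns* had 0.55 with pinosylvin, 0.74 with resveratrol and 0.015 with GR24, the last not past the threshold (adjusted p = 0.932). *Vldlr*, a lipoprotein receptor, was higher with both stilbenes (0.59 and 0.54) and lower with GR24 (-0.65). The stress cytokine *Gdf15* was dim on all control arrays and was at least 1.52-fold higher with the class and at least 4.35-fold higher with GR24, and its class call was lost with normexp background correction (adjusted p = 0.0591). The letters TGATGNAA of the CEBP-ATF element were in none of the 9 promoters of genes shared between the stilbenes and in 3.27% of all promoters. The factor *Cebpb* rose by 0.51 with the class and 0.89 with GR24, and the secreted glycoprotein *Stc2* was the shared decrease (-0.48). *Atf4* itself had 0.058 (adjusted p = 0.731).

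Of 20 tested genes of ER chaperones and degradation 8 rose and 1 fell with the class, 6 rose with both stilbenes, and GR24 raised 7 and lowered 7. The counts of this and the other lists stand beside the shares over all tested probes. Those were 8.85% higher and 8.83% lower with the class, and 3.46% and 4.49% with both stilbenes. With GR24 they were 31.5% and 25.5%, so the GR24 counts of this list lie near that share. The chaperone *Hspa5* (BiP) had 0.27 with pinosylvin, 0.31 with resveratrol and -0.25 with GR24. The GR24 decrease of *Hspa5* missed the threshold without GR24 replicate 3 (adjusted p = 0.053). The co-chaperone *Dnajc3* had 0.50, 0.33 and 1.17. *Hyou1*, another ER chaperone, rose with all 3 compounds, by 0.76, 0.47 and 0.52. *Derl3*, of the export of misfolded proteins, was dim on all control arrays and was at least 2.62-fold higher with the class (adjusted p = 4.66e-06) and at least 2.48-fold higher with GR24. The list median was 0.16 with the class, 0.15 on slide 1 and 0.19 on slide 2. Of 18 heat shock genes 4 rose with the class and none fell, or 1 fell with the replicate number as a block, and 3 rose with both, *Hspa9* (0.40), *Hspb8* (0.44) and *Bag3* (0.27). The class value of *Bag3* missed the threshold without control replicate 2 (adjusted p = 0.0648) or 3 (0.0659), and the class increases were 2 without control replicate 2. GR24 raised all 3, and *Bag3* and *Hspb8*, partners in the disposal of damaged filaments, by 1.04 and 1.04. The inducible *Hspa1a* had -0.35 with the class (adjusted p = 0.127), and was lower with the block (adjusted p = 0.0218) or without resveratrol replicate 1 (0.0369).

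Signalling genes gave smaller sets. Of 24 tested immediate early genes 10 rose and 1 fell with the class, and 5 rose with both stilbenes, against 8 with the replicate number as a block, which also gave 2 decreases with the class and 1 with both. Without control replicate 3 the class had 2 decreases. The 5 were *Fos*, *Egr1*, *Ier2*, *Ier5* and *Myc*, and *Ier5* missed the threshold with the class without control replicate 1 (adjusted p = 0.0555) or 3 (0.0547). *Egr1*, a zinc finger factor, had a log2 signal of -0.44, -0.19 and -0.48 on the control arrays, 0.89, 1.03 and 0.89 with pinosylvin, 0.18, 0.14 and 0.041 with resveratrol and 0.58, 0.47 and 0.59 with GR24. Pinosylvin gave the highest values, resveratrol the lowest of the treatments, and none of the groups overlapped. The change was 1.31 with pinosylvin and 0.49 with resveratrol, a difference of 0.81 (SE 0.087, adjusted p = 3.12e-05). *Myc* rose by 0.52 and 0.67, with a 95% interval of the difference of -0.34 to 0.026, and GR24 raised it by 1.16. *Fos* rose by 0.53 and 0.48, with an interval of -0.24 to 0.32, and its class value missed the threshold with normexp background correction (adjusted p = 0.182), in the authors' series table (0.0647) and without control replicate 2 (0.0529). Of 15 tested inflammatory genes 4 rose and 1 fell with the class. The 3 shared increases were *Ccl2*, the neutrophil chemokine *Cxcl1* (1.23) and *Vcam1*. Of 19 hypoxia response genes 7 rose and 1 fell with the class and 3 rose with both, or 5 with the block. These were the glucose carrier *Slc2a1* (0.45), the peptide hormone *Adm* (1.22) and *Vegfa*. The class value of *Slc2a1* missed the threshold without control replicate 2 (adjusted p = 0.062) or 3 (0.0796).

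*Vegfa*, the vessel growth factor, had a log2 signal of 1.23, 1.42 and 1.40 on the control arrays, 2.14, 2.16 and 2.20 with pinosylvin, 1.96, 1.91 and 2.00 with resveratrol and 1.45, 1.36 and 1.49 with GR24. Both stilbene groups lay above the control and apart from each other, while the GR24 arrays overlapped with the control. The change was 0.82 with pinosylvin, 0.60 with resveratrol and 0.081 with GR24 (95% interval -0.069 to 0.23). Of 20 p53 target genes 7 rose and 1 fell with the class, or 3 fell with the block, and 3 rose and 1 fell with both. The class increases were 4 without control replicate 1, pinosylvin replicate 1 or 2 or resveratrol replicate 2, and 2 genes fell without pinosylvin replicate 1. *Gadd45a*, a stress sensor of growth arrest, rose by 1.02 and 0.63, with 0.11 for GR24 (adjusted p = 0.549). The other shared increases were *Bbc3* (0.31, not called on slide 1 alone with adjusted p = 0.0654), which promotes cell death, and *Tp53inp1* (0.42), and the shared decrease was the cyclin kinase inhibitor *Cdkn2c* (-0.87). Of 25 lysosome and autophagy genes 9 rose with the class and none fell, and 4 rose with both, or 7 with the block. Among them were *Atp6v1h* (0.28), *Sqstm1* (0.64) and *Gabarapl1* (0.47), and GR24 raised these 3. The class increases of the list were 4 without control replicate 1 and 5 without control replicate 2 or 3 or pinosylvin replicate 2.

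Muscle differentiation genes moved little as a class, and the stilbenes differed in them. Of 39 tested 3 rose and 4 fell with the class, and 8 fell with the replicate number as a block. A single gene rose without control replicate 1 or 3. With both stilbenes none rose and 2 fell, or 1 and 3 with the block. The median was 0.21 with pinosylvin and -0.24 with resveratrol, and in 25 genes pinosylvin was higher than resveratrol, with none lower. GR24 lowered 33 and raised 1, with a median of -1.29, or -1.15 with the genes near background at their bounds. *Myog*, the factor that starts myotube formation, had a log2 signal of 5.24, 5.25 and 5.08 on the control arrays, 6.01, 5.85 and 5.91 with pinosylvin, 4.72, 4.67 and 4.65 with resveratrol and -0.38, -1.05 and -0.50 with GR24. Pinosylvin lay above the control, resveratrol below it and GR24 far below. The changes of *Myog* were 0.73, -0.51 and -5.83. Opposite calls were also made for troponin *Tnnc2* (0.25 and -0.26), the acetylcholine receptor subunit *Chrnd* (0.87 and -0.58), the calcium pump *Atp2a1* (0.39 and -0.64) and *Stac3* of excitation-contraction coupling (0.78 and -0.75). With the block 11 genes of the list had opposite calls. The shared decreases were the regulator *Myf6* (-0.84 and -0.76) and the perinatal myosin *Myh8* (-0.44 and -0.75).

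Of 18 markers of undifferentiated myoblasts 4 rose and 3 fell with the class, where 8.85% and 8.83% of all tested probes did. With both stilbenes *Hes1*, *Vcam1* and *Sdc4* rose and *Met* fell, with 2 shared decreases under the block. *Met*, the receptor of hepatocyte growth factor, had -0.43 with pinosylvin and -0.78 with resveratrol, and its GR24 value was 0.059 (adjusted p = 0.519). With the percentile over spots *Met* was called higher with GR24 (0.16, adjusted p = 0.0483). *Hes1*, a repressor downstream of Notch, rose by 0.62 with the class and 0.65 with GR24. The summed signal of the 10 myoblast markers on the arrays was 22.3, 22.6 and 26.7 in the control, 18.8, 18 and 20.7 with pinosylvin, 19.5, 22.8 and 23 with resveratrol and 19.7, 20.7 and 19.4 with GR24, and the log2 signal of *Pax3* was 3.40, 3.44 and 3.89 on the control arrays. The sums with pinosylvin and GR24 lay below those of the control, and those with resveratrol overlapped with them. Such a sum follows its brightest members, here *Pax3*, *Myf5* and *Met*, and the markers did not all move together. Of the 18 tested, GR24 raised 3 and lowered 7. The part of undifferentiated myoblasts in the decrease of the cell cycle genes was not tested. Of 9 tested markers of other cell types *Pdgfra* rose (0.39) and *Tubb3* fell (-0.86) with both stilbenes, and *Smtn* fell too with the class under the block (adjusted p = 0.00384). Without control replicate 3 the class had 2 decreases among them.

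Matrix genes fell in part. Of 29 tested 1 rose and 7 fell with the class, and 5 fell with both stilbenes, against 11 and 8 with the block. The shared decreases were the collagens *Col1a1* (-0.38), *Col5a1* (-0.36) and *Col15a1* (-0.56), thrombospondin *Thbs2* (-0.56) and the protease inhibitor *Timp1* (-0.43). *Col5a1* missed the threshold with the class without control replicate 1 (adjusted p = 0.0956) or 2 (0.0707), and 4 genes of the list fell without control replicate 1. GR24 lowered the first 4, while its value for *Timp1* was 0.094 (adjusted p = 0.384). *Timp1* was called higher with GR24 in the authors' series table (0.20, adjusted p = 0.0281) and with the percentile over spots (0.19, adjusted p = 0.0328). Of 18 TGF-beta target genes 2 rose and 3 fell with the class, or 6 fell with the block and 5 without resveratrol replicate 2. Over all tested probes 8.85% rose and 8.83% fell with the class. With both stilbenes *Smad7* (0.54) and *Tgfb2* (0.42) rose and *Tgfbi* (-0.51) fell. GR24 raised *Smad7*, an inhibitor of the pathway, by 0.90. It lowered *Tgfb2*, but 7 settings lost that call (adjusted p up to 0.193). These were the series table, no filter on dim probes, the percentile over spots, and leaving out control or GR24 replicate 1 or 2.

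Lists of sirtuin, mitochondrial and glucose genes are given beside the share of all tested probes, of which 3.46% rose and 4.49% fell with both stilbenes. Of 10 tested sirtuin and NAD genes *Sirt3* rose (0.28) and *Sirt7* fell (-0.27) with the class, and none moved with both. *Sirt3* missed the threshold without control replicate 3 (adjusted p = 0.0712), and 2 genes fell without resveratrol replicate 2 or GR24 replicate 3. With the block 3 fell with the class and *Sirt3* rose with both. Of 24 mitochondrial biogenesis genes *Tfb2m* and *Esrra* rose and *Nrf1* fell with the class, and none moved with both. All 3 calls were lost without control replicate 1 (adjusted p = 0.154, 0.0609 and 0.136) or 2 (0.102, 0.0682 and 0.183). That of *Tfb2m* was lost without any other single array except GR24 replicates 2 and 3, with adjusted p up to 0.0795, and that of *Nrf1* without any except control replicate 3, GR24 replicate 2 and resveratrol replicate 1, with adjusted p up to 0.0886. *Sirt1* had no probe under its name, and *Ppargc1a* had none that was tested. Of 27 glucose and insulin genes *Slc2a1* and *Slc2a3* rose and *Prkaa2* fell, or 7 rose and 2 fell with the block. Without control replicate 3 a single gene of that list rose, and without pinosylvin replicate 2 a pair fell. Only *Slc2a1* rose with both, or 3 genes with the block.

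Of 9 Ahr target genes *Nqo1* and *Ahr* rose with both stilbenes and the repressor *Ahrr* fell with the class (-0.37). The class had 2 decreases without pinosylvin replicate 1 or GR24 replicate 3, and 3 with the block, of which *Aldh3a1* fell with both. *Ahr*, the receptor gene, passed the background on 1 control array and on all stilbene arrays, with a class change of 1.14 and a GR24 change of 1.46, or 0.31 and 0.46 with normexp background correction. The size of these changes thus depends on the background correction, and only their direction is read. The letters GCGTG of the xenobiotic response element were in 139 (45.1%) of the 308 promoters of shared increases, in 43.6% of those of tested genes and in 27.2% of all promoters. Of 14 clock genes 5 rose and *Npas2* fell with the class and none moved with both, or 3 with the block. The increases were 3 without control replicate 1, and 2 genes fell without control replicate 2. Of 20 interferon response genes *Ifit2* rose and 3 fell, and *Psmb8*, a subunit of the immunoproteasome, fell with both (-0.44), among 3 with the block. Without pinosylvin replicate 2 the interferon genes had 3 increases.

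The class medians of the remaining lists were small. For immediate early genes the median was 0.25 (0.23 on slide 1 and 0.29 on slide 2), for hypoxia genes 0.19 (0.16 and 0.22) and for lysosome genes 0.13 (0.18 and 0.19). Over all tested probes it was 0.032 (0.032 on slide 1 and 0.026 on slide 2), and with a block the medians of the lists were as without. Smaller medians above that value were those of p53 targets (0.12, with 0.073 on slide 1 and 0.15 on slide 2), heat shock (0.12, with 0.081 and 0.14), clock (0.095, with 0.057 and 0.16), glucose (0.085, with 0.094 and 0.11), mitochondrial (0.069, with 0.035 and 0.10) and sirtuin genes (0.054, with 0.12 and 0.018). Without control replicate 3 these were 0.048 for p53, 0.042 for heat shock, 0.010 for clock and 0.018 for mitochondrial genes. The medians of matrix (-0.070, with -0.059 and -0.090) and TGF-beta genes (-0.16, with -0.13 and -0.16) lay below 0. Other medians were those of muscle (-0.0044, with -0.038 and -0.018), myoblast (0.025, with 0.052 and 0.016), inflammatory (-0.031, with -0.0039 and -0.047) and Ahr target genes (-0.068, with -0.14 and 0.046). The interferon median of 0.0072 was -0.066 on slide 1, 0.11 on slide 2 and -0.068 without control replicate 3. That of the markers of other cell types was -0.072, or -0.054 on slide 1, 0.024 on slide 2 and 0.067 without control replicate 3.

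Some calls of single genes were lost under other settings. Without a filter on dim probes the class values of *Bag3*, *Col5a1*, *Esrra*, *Ier5*, *Nrf1*, *Prdx1*, *Sirt3*, *Slc2a1* and *Tfb2m* missed the threshold (adjusted p up to 0.131). On slide 1 alone those of *Bag3*, *Ier5*, *Nrf1*, *Prkaa2* and *Tfb2m* missed it (adjusted p up to 0.0928). *Nrf1* also missed it with quantile normalization, in the authors' series table and with only the arrays compared, and *Tfb2m* with normexp background correction. The GR24 increase of *Prim1* was lost with normexp, with quantile normalization, without the filter and on slide 1, and the GR24 decrease of *Hspa5* without the filter and in the series table. The difference between the stilbenes was lost for *Kif2c* with quantile normalization and without the filter. That of *Cdc6* was lost with these, in the series table and with only the arrays compared. *Mrgprf* was called lower with GR24 with normexp, with trend and robust settings, with the stricter filter or its percentile and on slide 1, where *Mapkapk3* was too.

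Counts of listed genes moved with settings too. Without a filter on dim probes the class increases were 7 for ATF4 stress genes, 4 for lysosome genes, 3 each for p53 and clock genes and 2 for heat shock genes, and the decreases 4 for matrix and 2 for fatty acid genes. The p53 increases were 4 with quantile normalization or in the authors' series table. On slide 1 alone 2 clock and 2 inflammatory genes rose. Decreases of TGF-beta genes were 5 in the series table, with trend and robust settings and with the percentile over probes above background on all 12 arrays. Other counts of 1 or 2 genes moved as well, the glucose increases to 4 with quantile normalization, in the series table and with that percentile.

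**Figure D2:**
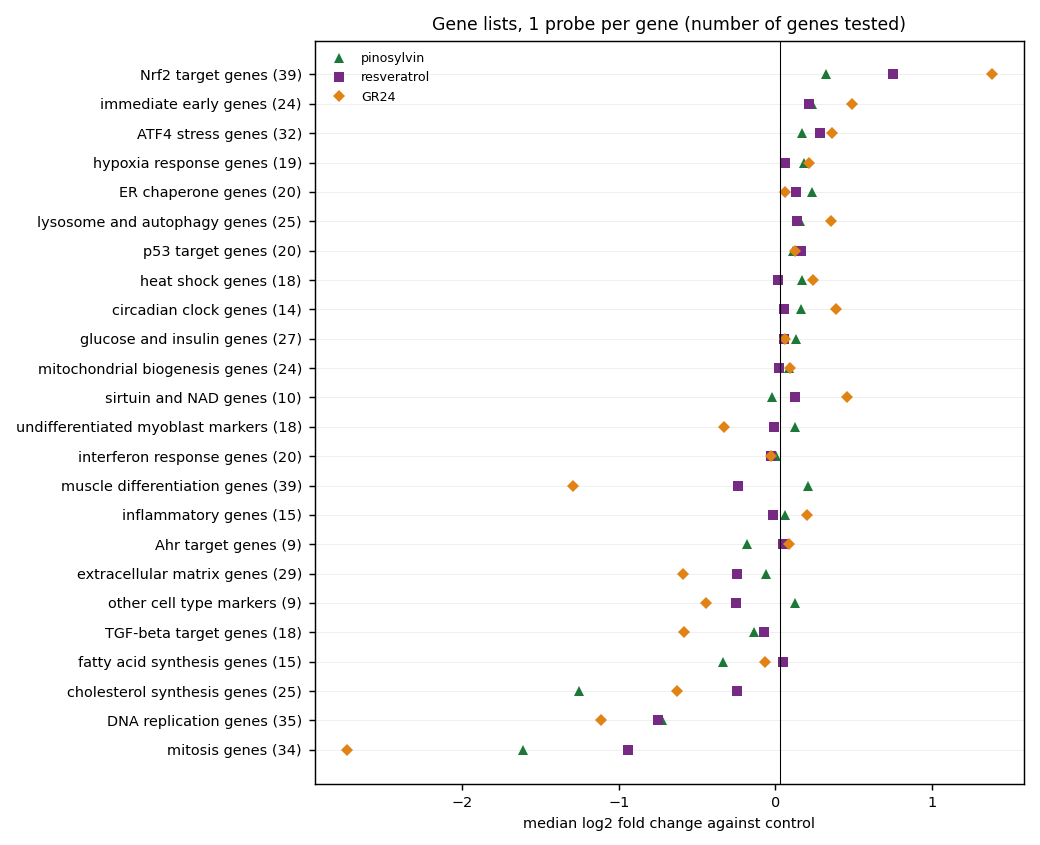
Median log2 fold change against control (x axis) of the genes tested in each of 24 lists (y axis, number of genes in brackets), with 1 symbol each for pinosylvin, resveratrol and GR24. The vertical line is the class median of all tested probes. The mitosis genes lie lowest with GR24 and the Nrf2 target genes highest, and the stilbene symbols lie between the line and the GR24 symbol in both.

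Shared decreases into the background range were found in 4 genes by the rule for bounds. *Fmo1*, a flavin monooxygenase, was not well above background on any stilbene or GR24 array, and was at least 3.4-fold lower with the class (adjusted p = 2.32e-05) and at least 3.11-fold lower with GR24. *Hpgd*, which inactivates prostaglandins, was at least 1.74-fold lower with the class, *Dnai2*, a dynein chain of motile cilia, at least 1.48-fold, and *C14h7orf57* at least 1.38-fold. With normexp background correction these last 3 missed the threshold (adjusted p = 0.0638, 0.0602 and 0.0577).

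The stilbenes were compared directly at the same dose and time, as 1 of 2 pairs of compounds with p-values adjusted over both pairs, the other being GR24 against their mean. Pinosylvin was higher than resveratrol in 2563 probes and lower in 2261. Together these were 4824 probes, against 7615 with the replicate number as a block. Among the 840 shared increases 69 were higher and 145 lower with pinosylvin, and 626 (74.5%) had no call. Of these 626, the 95% interval of the difference lay within 1 log2 unit either way in 621. Among the 1091 shared decreases 115 were higher and 384 lower with pinosylvin, 592 (54.3%) had no call, and 580 of those had an interval within 1 log2 unit. Part of the shared response thus differed in size between compounds that differ by a hydroxyl group. For most of the rest the interval held no difference beyond 2-fold, but these probes were picked for having no call. That margin is also wider than the median shared change, with pinosylvin 0.46 for increases and -0.74 for decreases. Whether the compounds change these probes by the same amount was therefore not tested.

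Among shared genes the widest gap with pinosylvin higher was that of *Aspg*, with 1.81 (SE 0.12, adjusted p = 8.11e-07). *Adgrg1*, an adhesion receptor, rose by 1.73 with pinosylvin and 0.32 with resveratrol. The glypican *Gpc5* rose by 1.69 and 0.62, but its 3 probes had class values from -0.29 to 1.39, so its direction rests on the probe taken. *LOC100911827* had -0.34 and -1.38, and the killer cell receptor gene *Ly49i2*, of a family of near-identical copies, had -0.29 and -1.32. With resveratrol higher, the widest gaps were those of *Nqo1*, *Srxn1*, *Dhcr7* and *Neil3*. *Neil3*, a DNA repair glycosylase of dividing cells, had -1.95 and -0.57, and was at least 5.96-fold lower with GR24.

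Opposite directions were called in 74 named genes, or 174 with the replicate number as a block. *S100a3*, a calcium-binding protein, had a log2 signal of 1.12, 1.18 and 1.14 on the control arrays, 2.49, 2.31 and 2.46 with pinosylvin, 0.15, 0.13 and 0.14 with resveratrol and -0.66, -0.73 and -0.79 with GR24. The pinosylvin arrays were all above the control and the resveratrol and GR24 arrays all below. Pinosylvin minus resveratrol was 2.28 (SE 0.065, adjusted p = 3.09e-09). The clotting factor subunit *F13a1* (1.59 and -0.39) and *Ovol3* (0.57 and -1.28) went the same way. The interferon-induced chemokine *Cxcl10* went the other way (-1.11 and 0.82). *Gsta2*, of the alpha class like *Gsta1*, was well above background on 1 control array, on no pinosylvin array and on all resveratrol arrays. The called decrease of *Gsta2* with pinosylvin thus lies in the background range. *Gsta2* was at least 1.49-fold higher with resveratrol than with pinosylvin. Its class value passed the threshold only without control replicate 3 (adjusted p = 0.0192) or on slide 1 (adjusted p = 0.0411), and that of *Ovol3* only without resveratrol replicate 1 (adjusted p = 0.0326).

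GR24 parted from the stilbenes in a minority of shared genes. Of 10741 named genes tested, 362 rose with both, were well above background on all control and stilbene arrays and had no overlap between them. Among these 362, 57 were lower with GR24. Of 540 such genes that fell, 31 were higher. Over all 10741 named genes GR24 lowered 2869 and raised 3874, so opposite calls were no more frequent here than such calls at large. *Stc1*, a secreted glycoprotein hormone, had a log2 signal of 1.24, 1.11 and 1.23 on the control arrays, 1.83, 1.91 and 2.02 with pinosylvin, 1.38, 1.67 and 1.51 with resveratrol and -1.80, -2.09 and -1.94 with GR24. The stilbene arrays were all above the control arrays by a modest step, and the GR24 arrays all below by a large one. The class change was 0.53 (SE 0.085), the GR24 change -3.14, and GR24 minus the stilbene mean -3.66 (SE 0.085, adjusted p = 8.93e-10). The class change was 0.52 on slide 1 and 0.54 on slide 2. *Npy1r*, a receptor of neuropeptide Y, rose by 0.67 with the class (adjusted p = 0.0112, or 0.0528 without control replicate 2; for resveratrol alone 0.0472, or 0.0508 with the replicate number as a block) and was at least 4.07-fold lower with GR24, where it was not well above background. The adhesion molecule *Vcam1* had 0.49 with the class and -2.15 with GR24, and its class value did not pass on slide 1 alone (adjusted p = 0.086). *Fscn2*, which bundles actin, had 0.81 and -1.88, and the secreted *Crispld2* 0.82 and -1.72.

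In the other direction, *Nt5c*, a nucleotidase, had a log2 signal of -0.33, -0.49 and -0.45 on the control arrays, -1.43, -1.35 and -1.48 with pinosylvin, -1.25, -1.06 and -1.32 with resveratrol and 1.08, 1.05 and 0.68 with GR24. The stilbene arrays were below every control array and the GR24 arrays above. The changes were -0.89 (SE 0.098) with the class and 1.36 (SE 0.11) with GR24. *F2rl1*, a receptor cut by proteases, had -0.86 and 0.73, the T cell ligand *Tnfsf9* -0.44 and 1.04, the DNA repair enzyme *Alkbh2* -0.44 and 0.72, and the histone methyltransferase *Prdm9* -0.54 and 0.74.

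Other shared genes were not called with GR24. A missed threshold alone does not separate GR24 from the stilbenes, so the direct contrast was taken with it. Over all tested probes that contrast called 29.4% higher and 25.8% lower. Of the 152 shared increases that GR24 missed, 137 differed between GR24 and the stilbene mean, and of the 141 shared decreases 126 did. Such probes were picked by calls from the same fit, which favours a difference, so the counts are a description only. In named genes with no overlap the counts were 60 and 67. The largest of these increases included *Atf5*, *Cp*, the copper-carrying ferroxidase, *RGD1562890* and *Dusp13a*, a phosphatase that shares its locus with a sister transcript. For the last 3 the class changes were 1.14, 1.09 and 1.02, the GR24 values -0.21, -0.097 and -0.14, and the adjusted p of the difference 2.34e-06, 1.68e-07 and 8.11e-06. *Cp* was lower with GR24 without control replicate 2 (adjusted p = 0.0255).

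*Tlcd3b* led the decreases of this kind, with a log2 signal of 0.65, 0.72 and 0.28 on the control arrays, -0.83, -0.98 and -1.15 with pinosylvin, -0.20, -0.29 and -0.42 with resveratrol and 0.67, 0.68 and 0.56 with GR24. The GR24 arrays lay within the range of the control arrays and both stilbene groups lay below it. Its class change was -1.19 (SE 0.11), its GR24 value 0.085 (95% interval -0.19 to 0.36), and GR24 minus the stilbene mean 1.28 (adjusted p = 4.85e-06). For the secreted *Slurp1*, the kinase *Mapkapk3* and the receptor *Mrgprf* the class changes were -1.19, -1.18 and -1.04, and the GR24 values -0.25, -0.18 and -0.50 (adjusted p = 0.0644, 0.231 and 0.0523). With the replicate number as a block these 3 also fell with GR24 by less than with the class (adjusted p = 0.0287, 0.016 and 0.000777). Leaving out some single arrays had the same effect, for *Slurp1* pinosylvin replicate 3 (0.0319) or resveratrol replicate 2 (0.0361), for *Mapkapk3* control replicate 3 (0.0422) and for *Mrgprf* control replicate 3 (0.0182), GR24 replicate 1 (0.0459), pinosylvin replicate 3 (0.0269) or resveratrol replicate 3 (0.0492), each given as an adjusted p.

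**Figure D3:**
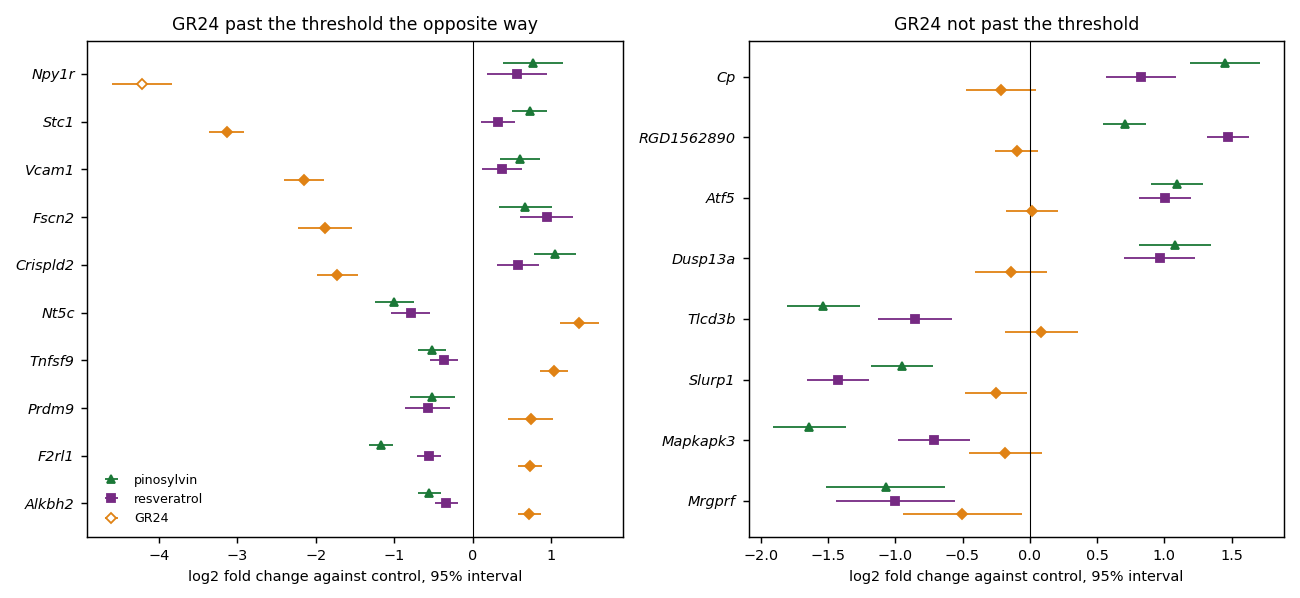
Log2 fold change against control with its 95% interval (x axis) for shared genes that GR24 moved the opposite way past the threshold (left) and for those where it did not pass (right), with 1 symbol per compound. An open symbol marks a compound with no array well above background for the probe. On the left the stilbene and GR24 symbols lie on opposite sides of 0. On the right the GR24 intervals of *Slurp1* and *Mrgprf* lie below 0 and the others include it.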

How the data were processed

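Total RNA of 12 samples was measured on 1-colour Agilent rat arrays. The deposited scanner files hold intensity values per spot, background-subtracted per the file headers by Agilent Feature Extraction 12.0.0.7. A table of log2 values that the authors deposited beside them, normalized by an unstated method, served as an alternative on 24210 shared probes. Its column medians were 9.22, 9.24, 9.21, 9.22, 9.21, 9.24, 9.21, 9.22, 9.22, 9.24, 9.21 and 9.22, and its centring stays unknown. Spots of a probe were averaged without outlier marks, no spot was saturated, and 58.0% to 64.3% of spots per array were well above background. Log2 signals were taken minus the array's 75th percentile over probes. Of 45598 probes 24279 were tested, those with a value in every group and, in 1 group or more, all 3 arrays well above background. The number of arrays limits the precision. A total of 21109 probes (46.3%) carried a current gene symbol through its accession among the RefSeq genes of GRCr8.

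limma 3.58.1 in R 4.3.3 fitted a mean per group over all 12 arrays (lmFit, eBayes, Benjamini-Hochberg over all tested probes, threshold 0.05). The 2 contrasts between compounds were adjusted together. The fit was tried on simulated arrays with known changes. A gene is given by its tested probe with the highest mean. Of 2345 genes with several tested probes, 3 had probes called both ways by the class. Named genes (61) are, among genes called alike with both stilbenes, well above background on the 9 control and stilbene arrays and with no overlap between them, the 12 largest increases and decreases, and up to 5 each way called the opposite way with GR24, not called with GR24 but different from the stilbenes, or widest between the stilbenes. Added were up to 5 each way dim in the control or with the stilbenes, up to 5 with opposite stilbene calls, and members of 24 lists (606 genes, 16 in several lists). Some of these genes are not reported here. The list members described were picked after their values were seen, and the members and lists were chosen with earlier results of these data known.

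Same-numbered arrays deviated together, with a correlation of residuals over probes of 0.36 to 0.47 for replicate 1, 0.19 to 0.42 for replicate 2 and 0.64 to 0.74 for replicate 3, against -0.66 to 0.48 between different numbers. Replicates 1 and 2, on the same slide, correlated with each other at 0.22 to 0.48, so these values do not separate the number from the slide. The pairing rests on these correlations, since the labels give only the numbers. Alternatives were normexp background correction (offset 50, on median spot signals because mean signals were not in the files), quantile normalization, the series table, other filters and percentiles, fewer arrays, blocks for replicate number or slide, trend and robust eBayes, outlier spots kept and each array left out.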

Additional observations from a re-analysis of the deposited data

How the results depend on the processing

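All counts below have a direction fixed by their definition. Of the class, shared, GR24 and between-compound counts named here, those without a value were within 1.5 times the reported ones under the alternatives run, while counts per stilbene, of opposite calls and of listed genes that moved further are in the report. With the replicate number as a block, higher counts came out: 3803 probes rose with the class, 1727 rose and 1674 fell with both stilbenes, 7615 differed between pinosylvin and resveratrol, and GR24 moved 2468 shared probes the same way and 473 the opposite way. With the slide as a block these were 3879, 1762, 1682, 7730, 2504 and 481. Of the single-gene calls the report states, those that differed with the replicate number as a block are given there and it changed no other, and its counts of listed genes stand beside those the report states where they differed by over 1.5 times. Without a filter on dim probes, which brings in more probes to adjust over, 1161 probes rose with the class, 391 rose with both, and GR24 moved 886 the same way and 72 the opposite way. With only the arrays compared, 3090 probes differed between pinosylvin and resveratrol, and GR24 results were not recomputed. The cause was not tested.

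With each of the 12 arrays left out in turn, the probes higher with the class ranged from 1384 to 2233, those higher with both stilbenes from 550 to 879, and those moved the opposite way by GR24 from 116 to 192. The remaining results ranged from 1510 to 2213 for probes lower with the class, 780 to 1131 for those lower with both, 3549 to 5115 for those that differed between pinosylvin and resveratrol, 11711 to 13653 for those that differed between GR24 and the stilbenes, and 1029 to 1491 for those moved the same way by GR24. On slide 1 alone, a setting added after the data were seen like the percentile over spots, all counts were within 1.5 times the reported ones.

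The median of the interferon genes (0.0072) changed sign on slide 1 alone (-0.066) and, among values of -0.068 to 0.062 with an array left out, without control replicate 3 (-0.068). The median of the markers of other cell types (-0.072) ranged from -0.15 to 0.067, with the sign changed without control replicate 3 (0.067). Of the other list medians, 11 values moved by more than the spread between replicates and 586 did not. Counts of genes in lists moved by over 1.5 times in 121 of their values and not in 1079. No value of a named gene changed sign with a call, while 113 passed the threshold and 193 missed it under an alternative, against 9515 that kept their side. Signal over background limits genes below it to bounds.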
